A study of Mus musculus with 4 samples.

Results

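The immediate-early response genes Jun, Junb, Jund, Fos, Fosb, Egr1, Atf3, Nr4a1, Ier2 and Dusp1 were followed in testes of Adad2-knockout and wild type mice. The 10 genes were chosen by symbol. Each matched 1 entry among the 26068 entries of the table that name a gene, so no choice between repeated entries was needed. Whole testes came from male B6D2F1 mice of 24 days that were either homozygous for the Adad2 knockout or wild type, with 2 RNA-seq libraries in each group. B6D2F1 is a hybrid of inbred mouse strains, and at this age the first spermatids are present. The labels do not give the deleted part of Adad2, and they do not say whether the libraries come from separate animals, so the p-values reflect the spread between these libraries alone, and that spread may be technical.

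Immediate-early genes are transcribed within minutes of a signal, from factors already present in the cell, and their short-lived transcripts are cleared soon afterwards. Jun, Junb and Jund pair with Fos, Fosb or each other through leucine zippers to form the transcription factor AP-1, and Atf3 is a related zipper protein induced by stress. Egr1 is a zinc finger transcription factor, Nr4a1 an orphan nuclear receptor, Ier2 a small nuclear protein, and Dusp1 a phosphatase that switches MAP kinases off. In the testis, Nr4a1 is known in Leydig cells, the androgen-producing cells between the tubules, where luteinizing hormone induces it, and Jun acts in Sertoli and Leydig cells as well as germ cells.

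Jun rose and Nr4a1 fell, and their upstream sequences are given here because these were the members that passed the test, with Dusp1 as an uncalled member for contrast. Each run covers 250 bases before and 50 bases after a transcription start, 5′ to 3′ on the gene's strand, from RefSeq on GRCm38.p6, a build other than the mm9 of the expression table. The windows are chr4:95052173-95052472 on the minus strand for Jun, chr15:101266596-101266895 on the plus strand for Nr4a1 and chr17:26508423-26508722 on the minus strand for Dusp1. Capitals mark the motif matches described in the next paragraph.
Jun: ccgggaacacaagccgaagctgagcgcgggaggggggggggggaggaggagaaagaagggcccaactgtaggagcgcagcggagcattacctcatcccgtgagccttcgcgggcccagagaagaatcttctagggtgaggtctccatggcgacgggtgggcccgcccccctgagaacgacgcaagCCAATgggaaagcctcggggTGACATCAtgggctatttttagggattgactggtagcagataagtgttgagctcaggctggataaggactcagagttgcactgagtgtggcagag
Nr4a1: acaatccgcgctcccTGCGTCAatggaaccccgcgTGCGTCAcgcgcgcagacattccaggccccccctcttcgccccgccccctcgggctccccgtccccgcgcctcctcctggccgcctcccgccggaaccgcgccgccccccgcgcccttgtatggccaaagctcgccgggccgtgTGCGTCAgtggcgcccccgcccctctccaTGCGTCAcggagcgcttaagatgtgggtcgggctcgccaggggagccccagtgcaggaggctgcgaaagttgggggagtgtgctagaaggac
Dusp1: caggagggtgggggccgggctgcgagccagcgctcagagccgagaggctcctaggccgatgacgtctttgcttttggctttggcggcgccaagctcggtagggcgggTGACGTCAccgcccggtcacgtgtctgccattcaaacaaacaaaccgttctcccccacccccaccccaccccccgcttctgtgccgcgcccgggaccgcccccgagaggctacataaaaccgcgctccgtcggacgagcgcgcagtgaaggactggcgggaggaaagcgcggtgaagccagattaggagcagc

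Windows were found for 8 of the 10 members, with none found for Ier2 and Egr1. On both strands, the cyclic AMP response element TGACGTCA was in the Dusp1 window 143 bases before the start, and in 1.79% of all 32851 windows. TATAAA was in the windows of Fos, 33 bases before the start, and Junb, from base 1 of the transcript (13.6% of all windows). CCAAT was in those of Jun and Junb, 65 and 36 bases before the start, and of Atf3 (37.4%). The Atf3 match lay after the start, from base 6 of the transcript, on the opposite strand. The AP-1 element TGACTCA (5.2% of windows) was in none of the 8 windows. Nor were the CArG box bound by serum response factor (1.63%) and the Egr element GCGTGGGCG (0.612%). Sequence farther than 250 bases before the start was not searched. A further pair of motifs was chosen after the sequences had been seen. TGACATCA, a variant of the AP-1 element, began 45 bases before the Jun start (3.62% of windows). TGACGCA, read as TGCGTCA on the Nr4a1 strand, was in the windows of Fosb and Nr4a1 (2.12% of windows). It occurred 4 times in the Nr4a1 window, beginning 235, 215, 71 and 42 bases before the start, and Nr4a1 had the only window of the 32851 with so many. The motifs searched do not overlap one another in these windows. A match is a run of letters and not a measured binding site.

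The deposited values are log2 RPKM, reads scaled to gene length and library size on a log2 scale, so levels of genes of different length can be compared. From the value of single-exon genes without reads, taken as 0.9 of a read, depth was estimated at 33000000 and 29400000 reads in the knockout libraries. In the wild type libraries the estimates were 30200000 and 36900000 reads. Adad2 itself, the targeted gene, stood at 3.73 and 3.30 log2 RPKM in knockout and 4.66 and 4.47 in wild type testes (limma adjusted p = 0.00604), so transcript was still measured in the knockout. Of 13414 genes tested, 163 (1.22%) were higher and 959 (7.15%) lower in knockout testes at an adjusted p under 0.05. By limma, 3616 of the 13414 had an unadjusted p under 0.05, the background for the unadjusted counts of the lists below. The median change over all genes tested was 0.14 on the log2 scale, and 71.8% had a change above 0. All 6 spermatid markers lay lower in both knockout libraries, 5 of them past the threshold, and their summed level was 40.6 and 17.5 RPKM in knockout against 680.5 and 655.5 RPKM in wild type testes. In whole tissue, fewer cells of a type and less RNA per cell cannot be told apart.

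Of the 10 members, 7 reached the filter of a mean of 0 on the log2 RPKM scale (1 RPKM) and were tested, and Fos, Fosb and Atf3 did not. Among the 7, 1 rose, 1 fell and 5 were not called, where 8.36% of all genes tested were called in either direction. The median change of the 7 was 0.11, beside 0.14 over all genes tested. A change above that overall median was found in 3 of the 7. The knockout libraries lay above both wild type libraries in 2 of the 7 and below both in 1, beside 46.4% and 16.8% of all genes tested. The 10 genes summed to 29.3 and 34.4 RPKM in knockout and 28.4 and 33.4 RPKM in wild type testes, so the total was higher in replicate 2 of each group and the groups overlapped.

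**Figure D1:**
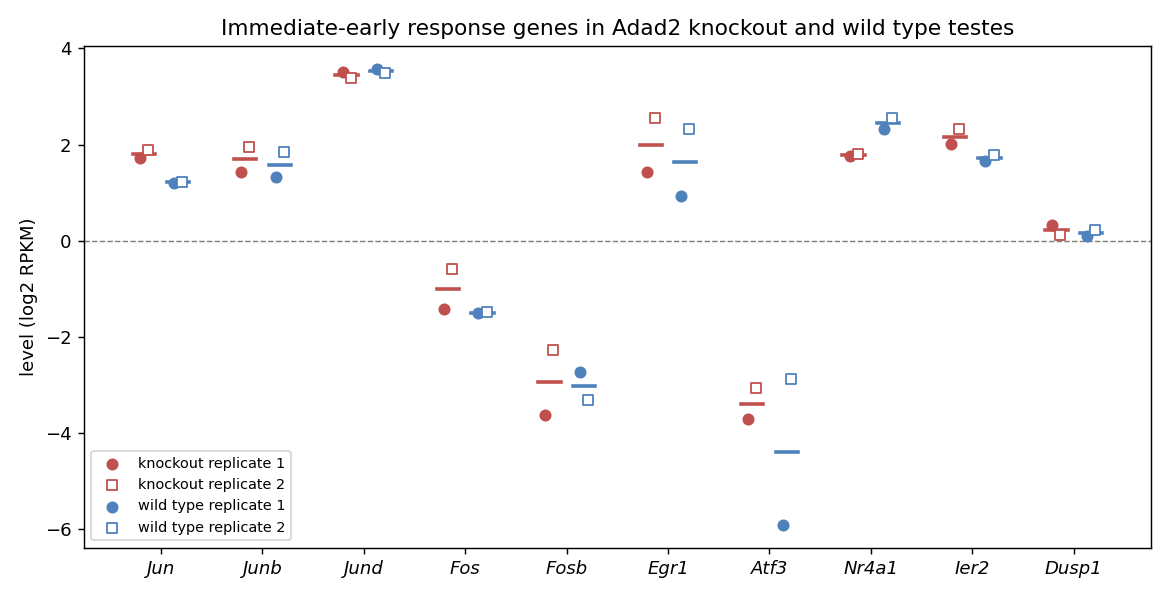
Level in log2 RPKM (vertical axis) of the 10 members in knockout (red, left) and wild type (blue, right) testes, with filled circles for replicate 1, open squares for replicate 2, and a bar at the group mean. The knockout libraries stand above the wild type libraries for Jun and below them for Nr4a1, and Egr1 spreads from 1.43 to 2.55 in knockout and 0.93 to 2.33 in wild type testes.

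Jun, the founding AP-1 subunit, rose in knockout testes. Its level was 1.72 and 1.89 log2 RPKM in the knockout libraries and 1.20 and 1.22 in the wild type libraries, which is 3.29 and 3.71 RPKM against 2.30 and 2.34 RPKM. The groups did not overlap, and the wild type libraries were almost equal. The change was 0.59 (SE 0.14, 95% confidence interval 0.26 to 0.92, n = 2 per group), 1.51-fold, with a limma adjusted p = 0.0402. Against the median change of all genes it was 0.45. The call rests on few libraries: adjusted p was 0.108 without knockout replicate 2, 0.231 without wild type replicate 1 and 0.188 without wild type replicate 2, and 0.0968 with no filter. In mm9, Jun (ENSMUSG00000052684) spans 94715725 to 94718913 of chromosome 4 (minus strand). The length at which all values became whole reads, 3189 bases, equals this span, so the gene was counted without an intron, with 346 and 348 reads in knockout and 222 and 275 reads in wild type libraries. An entry on the opposite strand, BC042782, shares 689 bases with it and stood at -1.15 and -1.53 log2 RPKM in knockout and -1.92 and -1.63 in wild type testes. Whether strand was used in counting is not given in the sources used here.

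Junb and Jund, the other Jun proteins, were not called. Junb, which can restrain Jun, was at 1.43 and 1.95 log2 RPKM in knockout and 1.33 and 1.84 in wild type testes. Replicate 2 was the higher library in each group, and the groups overlapped. Its change was 0.11 (95% confidence interval -0.48 to 0.69, n = 2 per group, limma adjusted p = 0.776). Jund, the family member that most tissues express without a stimulus, was the most abundant of the 10 genes, at 3.51 and 3.38 log2 RPKM in knockout and 3.57 and 3.5 in wild type testes. Its change was -0.09 (95% confidence interval -0.33 to 0.15, limma adjusted p = 0.575), and the groups overlapped. The 95% confidence interval of Jund ended at 0.15 on the log2 scale, and that of Jun ran from 0.26 to 0.92. Both rest on 2 libraries per group, and the difference between the genes was not tested. Jund shares 543 bases with Gm11175 on the opposite strand, an entry with 4.44 and 4.41 log2 RPKM in knockout and 4.47 and 4.40 in wild type testes. Within the summed RPKM of the 3 Jun genes, Jun made up 18.9% and 20.6% in knockout and 13.8% and 13.6% in wild type testes. That sum was 17.4 and 18.02 RPKM in knockout and 16.7 and 17.2 RPKM in wild type testes.

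Fos and Fosb, the partners of Jun, and Atf3 were too low for the test. Fos had 29 and 46 reads in knockout and 25 and 31 reads in wild type libraries, which is -1.42 and -0.59 log2 RPKM against -1.51 and -1.49. Knockout replicate 2 was high and the other 3 libraries were close together. Per depth, its summed reads were 1.44 times as many in knockout as in wild type testes, with an exact 95% interval of 1.01 to 2.08 that covers counting error only and not the spread between libraries. Fosb had 10 and 23 reads in knockout and 17 and 14 reads in wild type libraries (-3.63 and -2.26 against -2.74 and -3.31 log2 RPKM). The wild type values lay between the knockout values. Its ratio was 1.15 (exact 95% interval 0.68 to 1.93, counting error only). Atf3 had 5 and 7 reads in knockout and 1 and 10 reads in wild type libraries. The single read of wild type replicate 1 pulled the wild type mean of Atf3 to -4.39 log2 RPKM, against -3.39 in knockout testes, while the ratio of summed reads was 1.17 (exact 95% interval 0.47 to 2.94, counting error only). Without a filter the limma adjusted p was 0.553 for Fos, 0.953 for Fosb and 0.72 for Atf3. In every library Fos stood below Jun: the level of Fos minus that of Jun was -3.14 and -2.48 on the log2 scale in knockout and -2.71 and -2.71 in wild type testes.

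Egr1 varied more between libraries of a group than between the groups. It stood at 1.43 and 2.55 log2 RPKM in knockout and 0.93 and 2.33 in wild type testes, from 275 and 533 reads against 178 and 576 reads. Replicate 2 was high and replicate 1 low in each group, and the groups overlapped. The change was 0.36 (95% confidence interval -1.67 to 2.38, n = 2 per group, limma adjusted p = 0.746), an interval that holds falls and rises of more than 1. The spread of Egr1 within groups was as large as or larger than that of 99.7% of the genes tested. Of 10 members, 7 were higher in replicate 2 of both groups, Fos and Atf3 under the filter among them, against 28.4% of all genes tested. In wild type testes Jun and Fos differed between replicates by only 0.02 each. Genes of Leydig cells moved with Egr1: 7 of 8 markers were higher in replicate 2 of both groups, and the list summed to 370.2 and 527.3 RPKM in knockout and 315.4 and 463.2 RPKM in wild type testes, with Insl3, a Leydig cell hormone, the highest member. Their part in the Egr1 spread was not tested. Egr1 shares 200 bases with Gm17507 on the opposite strand, which was at -0.40 and -0.24 log2 RPKM in knockout and -0.27 and -0.41 in wild type testes.

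**Figure D2:**
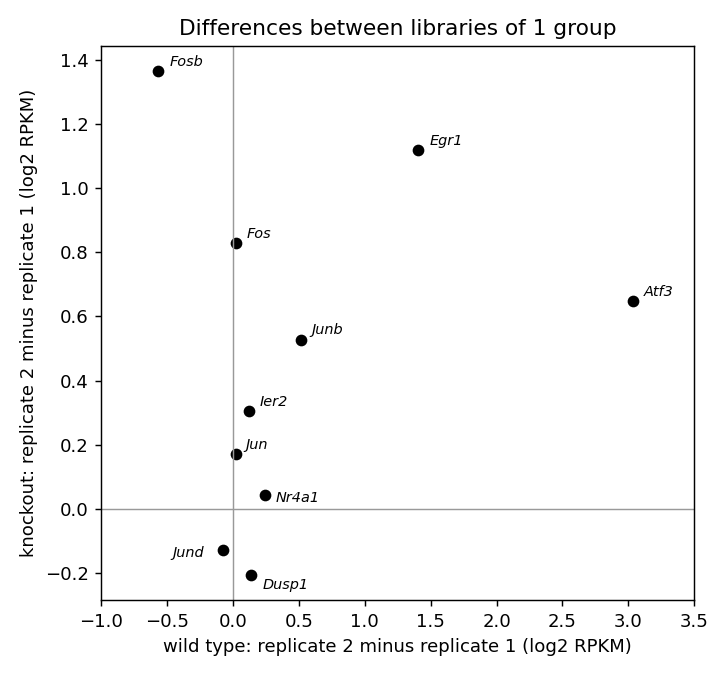
Replicate 2 minus replicate 1 in log2 RPKM for the 10 members, in knockout (vertical axis) and wild type (horizontal axis) testes, 1 point per gene. Egr1 lies far to the upper right, at 1.12 in knockout and 1.41 in wild type, and Atf3 and Fosb, at the fewest reads, lie at 0.65 and 1.36 in knockout and 3.03 and -0.57 in wild type.

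Nr4a1 fell in knockout testes. Its level was 1.76 and 1.81 log2 RPKM in the knockout libraries and 2.32 and 2.56 in the wild type libraries, which is 3.40 and 3.5 RPKM against 5.0 and 5.90 RPKM. The groups did not overlap, and the knockout libraries were almost equal. The change was -0.66 (SE 0.13, 95% confidence interval -0.96 to -0.35, n = 2 per group), a 1.58-fold lower level, with a limma adjusted p = 0.0183. It was not called without wild type replicate 1 (adjusted p = 0.108), without wild type replicate 2 (adjusted p = 0.175) or with no filter (adjusted p = 0.0621). Reads numbered 277 and 255 in knockout and 374 and 539 in wild type libraries. In mm9, Nr4a1 (ENSMUSG00000023034) spans 101097277 to 101105223 of chromosome 15 (plus strand), and no other entry of the table overlaps it. None of the 8 Leydig markers was called by limma (1 at an unadjusted p under 0.05), and their median change was 0.21, with 7 of 8 above 0. The spermatid markers fell beside it, and their part in its change was not tested.

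Jun and Nr4a1 were picked because they changed between the groups, in opposite directions and without overlap. Their ratio therefore had to set the groups apart and is no further support. Per length, Jun stood at 0.97 and 1.06 times the level of Nr4a1 in knockout testes, against 0.46 and 0.40 times in wild type testes. By group mean, Nr4a1 ranked 2 of 10 in wild type testes. Its libraries lay above those of Ier2, the next gene, but overlapped those of Egr1, which reached 2.33 log2 RPKM against the lowest Nr4a1 value of 2.32. In knockout testes Nr4a1 ranked 5 of 10, and the libraries of Ier2, Egr1, Jun, Nr4a1 and Junb overlapped from each to the next in order. In both groups Jund was highest without overlap, and Dusp1, Fos, and then Fosb with Atf3 followed at the low end. In wild type testes the neighbours Ier2, Egr1 and Junb overlapped. Jun lay below Junb there, and within the range of Egr1.

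Ier2 and Dusp1 were not called. Ier2, a growth-factor-induced nuclear protein, was at 2.01 and 2.31 log2 RPKM in knockout and 1.67 and 1.79 in wild type testes, from 202 and 223 reads against 146 and 194 reads. Both knockout libraries lay above both wild type libraries. The change was 0.44 (95% confidence interval 0.10 to 0.77, n = 2 per group, limma adjusted p = 0.118), with an interval above 0 for the gene alone and an adjusted p that missed the threshold. Without knockout replicate 1 Ier2 was called (adjusted p = 0.014). Dusp1 was at 0.32 and 0.11 log2 RPKM in knockout and 0.09 and 0.23 in wild type testes, and the groups overlapped. Its change was 0.05 (95% confidence interval -0.42 to 0.53, limma adjusted p = 0.862).

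**Figure D3:**
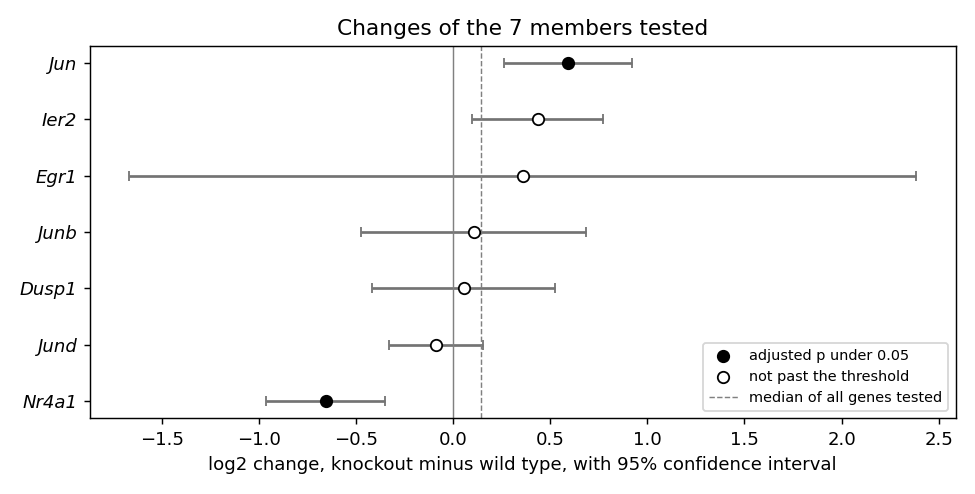
Log2 change (knockout minus wild type, horizontal axis) of the 7 members tested, with 95% confidence intervals from limma. Filled points are past the adjusted threshold (Jun at 0.59, Nr4a1 at -0.66), open points are not, and the dashed line is the median of all genes tested, 0.14.

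By the shape of their values over the 4 libraries, each centred on its own mean, the genes nearest to Jun were Zfp358, Fhl3 and Tnnt2, at Euclidean distances of 0.05, 0.06 and 0.07 on the log2 scale. Tnnt2, the cardiac troponin T gene, stood at 2.12 and 2.33 log2 RPKM in knockout and 1.66 and 1.60 in wild type testes. Nearest to Nr4a1 were Polr3c, a subunit of RNA polymerase III, the kinase Nek4 and Armc4, an axonemal protein, at distances of 0.04, 0.07 and 0.12. Polr3c stood at 2.97 and 2.95 log2 RPKM in knockout and 3.51 and 3.74 in wild type testes. With 4 libraries in 2 groups such likeness is a description only.

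Other immediate-early genes were called lower about as often as all genes. Of 27 tested from a list of 41, 2 fell and 0 rose by limma, beside 7.15% lower and 1.22% higher among all genes tested. At an unadjusted p under 0.05, 9 were higher and 3 lower, beside 3616 of all 13414 genes tested in either direction. The median change was 0.19, beside 0.14 over all genes. The genes that fell were Klf4 and Klf2, Krüppel-like factors. Klf4, a zinc finger factor of differentiating cells, was at 3.53 and 3.39 log2 RPKM in knockout and 4.51 and 4.40 in wild type testes, a change of -0.995 (SE 0.11, limma adjusted p = 0.000986) or 1.99-fold lower. Klf2, a related factor, was at 1.64 and 1.83 log2 RPKM in knockout and 2.30 and 2.45 in wild type testes (change -0.64, limma adjusted p = 0.022). Neither gene's groups overlapped. Klf4 was no longer called when wild type replicate 1 was left out (adjusted p = 0.0707), and Klf2 was not called without wild type replicate 1 (0.168), without wild type replicate 2 (0.198) and with no filter (0.0701). Of the 13 genes of the list under the filter, Egr3 stood out after its values were seen. This relative of Egr1 was at -1.14 and -2.11 log2 RPKM in knockout and 1.68 and 0.85 in wild type testes, 7.42-fold lower. Its mean over the libraries was -0.18, just under the filter, and with no filter its limma adjusted p was 0.049.

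Among the relatives of Jun and Atf3, 14 of 21 AP-1, ATF and CREB genes were tested, of which 1 fell and 0 rose by limma (1 higher and 1 lower at an unadjusted p under 0.05), with a median change of 0.14. That is close to the 7.15% of all genes tested that were lower. The gene that fell was Crem, which drives transcription in spermatids, at 3.57 and 3.47 log2 RPKM in knockout and 3.93 and 4.02 in wild type testes (change -0.46, limma adjusted p = 0.0313). Crem was not called without knockout replicate 2 (adjusted p = 0.0845), wild type replicate 1 (0.164) or wild type replicate 2 (0.18), with no filter (0.0823) or without trend and robust estimation (0.0794). Over 13 tested genes for serum response factor, its partners, CREB coactivators and Rps6ka kinases, the median change was 0.18. By limma, 1 of the 13 fell and 0 rose (2 higher and 1 lower at an unadjusted p under 0.05), again close to the share of all genes. The gene that fell was Rps6ka1, an RSK kinase below ERK. Its level was 1.57 and 1.67 log2 RPKM in knockout and 2.27 and 2.14 in wild type testes (limma adjusted p = 0.0293). It was not called without wild type replicate 1 (adjusted p = 0.234), wild type replicate 2 (0.145) or a filter (0.0767).

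The MAP kinases, the phosphatases that oppose them and the genes that act on AU-rich elements gave 1 call each, where 8.36% of all genes tested were called. Of 26 tested kinase cascade genes, 1 rose, 0 fell (5 higher and 1 lower at an unadjusted p under 0.05) and the median change was 0.19. Map2k5, the kinase that activates ERK5, was at 4.10 and 3.91 log2 RPKM in knockout and 3.44 and 3.51 in wild type testes (change 0.53, limma adjusted p = 0.0212). It was not called without wild type replicate 1 (adjusted p = 0.205), wild type replicate 2 (0.136), a filter (0.0688) or trend and robust estimation (0.0617). Of 6 tested relatives of Dusp1, 1 fell, 0 rose (1 higher and 2 lower at an unadjusted p under 0.05) and the median change was 0.25. Dusp4, a nuclear MAP kinase phosphatase, was at 0.04 and 0.17 log2 RPKM in knockout and 1.64 and 1.41 in wild type testes, a change of -1.42 (SE 0.18, limma adjusted p = 0.00194) or 2.67-fold lower. Dusp4 was not called without wild type replicate 1 (adjusted p = 0.1) or wild type replicate 2 (0.0568). Dusp10, under the filter and picked out after its values were seen, was at -0.92 and -1.63 log2 RPKM in knockout and 0.94 and 0.77 in wild type testes (4.37-fold lower, limma adjusted p = 0.0217 with no filter). Of 14 tested genes that act on AU-rich elements, which mark immediate-early transcripts for decay, 1 rose, 0 fell (2 higher and 0 lower at an unadjusted p under 0.05) and the median change was 0.20. Cnot8, a deadenylase subunit, was at 3.04 and 3.06 log2 RPKM in knockout and 2.55 and 2.68 in wild type testes (change 0.43, limma adjusted p = 0.047). Cnot8 was not called without knockout replicate 2 (adjusted p = 0.0696), wild type replicate 1 (0.246), wild type replicate 2 (0.138), a filter (0.11), trend and robust estimation (0.0893) or after quantile normalization (0.0507).

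**Figure D4:**
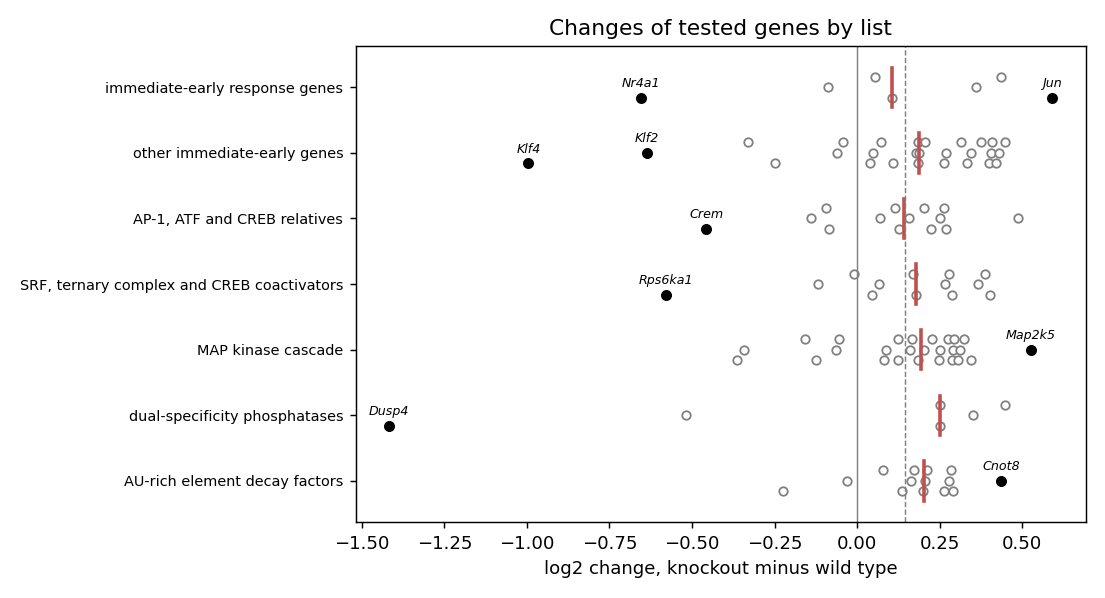
Log2 change (knockout minus wild type, horizontal axis) of every tested gene in 7 lists, 1 point per gene, with filled and named points past the adjusted threshold, red bars at the list medians and a dashed line at the median of all genes tested. The list medians lie between 0.11 and 0.25, and the genes farthest to the left are Dusp4 at -1.42 and Klf4 at -0.995.

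Levels of other cell markers are set beside these results. Of 6 spermatogonia markers tested, 0 were called by limma, and their median change was 0.24. That list summed to 82.9 and 81.1 RPKM in knockout and 68.4 and 65.7 RPKM in wild type testes. Of 6 spermatocyte markers, 1 fell, Pgk2 (limma adjusted p = 0.0216, and 0.0701 with no filter). Their median change was 0.13, with sums of 1801 and 1682 RPKM in knockout and 1610 and 1868 RPKM in wild type testes. By limma, 0 of 7 Sertoli markers were called, and their median change was 0.27. At an unadjusted p under 0.05, 5 were higher, where 3616 of 13414 genes tested reached that p in either direction. The Sertoli markers summed to 119.0 and 123.6 RPKM in knockout against 99.0 and 99.1 RPKM in wild type testes. The Sertoli genes of lowest p were the receptor Fshr (adjusted p = 0.106) and the junction protein Cldn11 (adjusted p = 0.115). Of 5 peritubular markers, 0 were called (1 at an unadjusted p under 0.05), with sums of 56.6 and 51.7 RPKM in knockout and 47.1 and 42.9 RPKM in wild type testes. Of 7 macrophage markers tested, 1 fell, Aif1, while 6 of 7 had a change above 0 and the median was 0.10. The list summed to 28.6 and 28.7 RPKM in knockout and 50.4 and 48.7 RPKM in wild type testes, but without Aif1 to 22.3 and 24.8 RPKM in knockout and 20.1 and 23.2 RPKM in wild type testes. Of 5 red blood cell markers, 0 were called (also 0 at an unadjusted p under 0.05), with sums of 38.5 and 50.2 RPKM in knockout and 105.6 and 50.5 RPKM in wild type testes. Wild type replicate 1, the library highest in these blood markers, was the lowest of the 4 for Jun, Junb, Fos, Egr1, Atf3, Ier2 and Dusp1. It was not the lowest for Jund, Fosb or Nr4a1. This was seen after the fact. The share of all genes lowest in that library was not counted, so the members cannot be set against other genes here. Of all genes tested, 71.8% had a change above 0, and 28.4% were higher in replicate 2 of both groups. The next lowest library was close for Jun (1.20 and 1.22 log2 RPKM), Fos (-1.51 and -1.49) and Dusp1 (0.09 and 0.11). Atf3 had 1 read in wild type replicate 1. The part of these cells in the changes of the members was not tested.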

How the data were processed

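Total RNA of whole testes was made into libraries with a TruSeq kit, per the labels' protocols. Per the submitters' processing notes, bcl2fastq 2.17.1.14 and Bowtie2 were used with mm9. The sources used here give neither the counting tool nor whether strand was used. The authors deposited log2 RPKM values per library. Of 26127 entries, 59 (0.226%) name no gene and were left out. Columns were matched to samples by group and number.

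A gene without reads carries 0.9 of a read in the table. The most frequent lowest value of genes with a single exon therefore gave each library's depth, and 95.1% to 96.9% of their values of up to 10 reads were whole within 2%. For each member, the smallest length that made all 4 values whole within 0.02 gave the reads. Depths and reads are estimates.

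Genes with a mean of at least 0 (log2 RPKM) over the 4 libraries entered a two-sided, unpaired fit in limma 3.58.1 (R 4.3.3; statmod 1.5.0) with a variance trend and robust moderation, no pseudocount, and p-values adjusted by Benjamini-Hochberg across the tested genes (threshold 0.05). Changes are knockout minus wild type means of log2 values. With 2 libraries against 2, the smallest p of an exact permutation test is 0.333, and the calls depend on the variance that limma shares among genes. The code was tested on simulated data. The members, the other lists and the tests were chosen with earlier results of these data known. Named were the members, in each list up to 4 called genes by lowest p or else the 2 of lowest p, the highest member of a marker list given beside a result, and the 3 nearest profiles of each called member.

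The settings varied were the filter (none, or a mean of 2), the scale (log2(RPKM + 1)), the normalization (quantile, or equal library medians), the variance model (no trend, not robust), a replicate block, and each library left out in turn. A group left with a lone library is assumed to vary like the other group.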

Additional observations from a re-analysis of the deposited data

How the results depend on the processing

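Without a filter, limma called 97 genes higher and no member in either direction (0 higher, 0 lower). An unadjusted p under 0.05 was found for 3 of 10 members, beside 4516 of all 26068 genes in that fit. More genes are adjusted for there, and the cause was not tested further. The stricter filter called 637 genes lower, and of the members it held only Jund and Nr4a1, so 0 were called higher. Of this pair, 1 had an unadjusted p under 0.05, beside 2629 of 8516 genes. Quantile normalization called 245 genes higher. Leaving out each library in turn gave 0 to 494 genes higher, 0 to 1308 lower, 0 to 2 members higher and 0 to 1 lower, from fewer samples. The lowest counts came without wild type replicate 1, where 2 of 7 members and 2357 genes had an unadjusted p under 0.05. In these fits the change ran from -0.16 to 0.37 for Junb, from -0.34 to 1.06 for Egr1 and from -0.048 to 0.16 for Dusp1, so each changed sign with the library left out. Over all alternatives that held them, Jun stayed between 0.44 and 0.68 and Nr4a1 between -0.78 and -0.53. Ier2 stayed between 0.28 and 0.59 and Jund between -0.15 and -0.03. The 0.44 for Jun and the -0.53 for Nr4a1 came from log2(RPKM + 1), a scale on which changes at low levels are smaller. Quantile normalization, equal medians and log2(RPKM + 1) changed no member's call.

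With the replicate number as a block, limma called 1837 genes higher and 1477 lower, and 3 members higher (Jun, Ier2 with adjusted p = 0.00679 and Egr1 with adjusted p = 0.0356) with 1 lower. Same-numbered libraries deviated together across genes (r = 0.33, 13414 genes, which are not independent replicates), but with 2 pairs and no such statement in the labels the number is not shown to pair the samples. Depth limits Fos, Fosb and Atf3 most, with 1 to 46 reads per library.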

Other observations

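The Egr1 difference between libraries had few counterparts. Replicate 2 exceeded replicate 1 by at least as much as for Egr1 in both groups in 3 of 13414 genes (0.0224%), namely Egr1, Cyp17a1 and Aqp2, picked by this difference after it was seen. Cyp17a1, the androgen-synthesis enzyme of Leydig cells, stood at 4.63 and 5.85 log2 RPKM in knockout and 3.85 and 6.02 in wild type testes. Aqp2, a water channel, stood at 0.81 and 2.28 in knockout and -0.67 and 1.91 in wild type testes. Over the 8 Leydig markers, the median difference of replicate 2 from replicate 1 was 0.46 in knockout and 0.41 in wild type testes, against 0.06 and 0.04 over the 7 Sertoli markers. Nr5a1, a nuclear receptor of steroid-producing cells, did not share it, at 3.56 and 3.66 log2 RPKM in knockout and 3.34 and 3.23 in wild type testes. Nr4a1 differed between replicates by 0.04 in knockout and 0.24 in wild type testes.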
